A study of Mus musculus with 4 samples.

Results

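Collagens are built from chains that wind into triple helices, and each chain is the product of its own gene. The genes fall into classes by the structure their proteins form. Fibrillar collagens (types I, II, III, V, XI, XXIV and XXVII) make the load-bearing fibres of connective tissue, type IV chains make the network of basement membranes, and type VI chains make beaded filaments beside cells. FACIT collagens, fibril-associated chains with interrupted helices, sit on the surface of fibres, transmembrane collagens are anchored in the cell surface, and the multiplexins (types XV and XVIII) lie in or beside basement membranes. Endothelial cells rest on a basement membrane that they help to make, while fibrillar collagens of lung are known mainly as products of fibroblasts.

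The 44 collagen chain genes described here are the rows of the deposited table, which has 17915 genes, whose symbol is Col, a number, a and a number. They comprise 11 fibrillar, 6 basement membrane, 6 beaded filament, 9 FACIT, 4 transmembrane, 2 multiplexin and 3 short-chain network (types VIII and X) genes, the anchoring fibril gene Col7a1, and 2 others, Col26a1 and Col28a1. Expression was read by bulk RNA sequencing of labelled lung endothelial cells of mice of genotype Cdh5-CreER;aSMA-LSL-Dre;NR1. All mice had received tamoxifen 5 times and had lived for 6 weeks after transverse aortic constriction (TAC), an operation that loads the heart and here served as a model of lung fibrosis. Cdh5-CreER is active in cells that use the endothelial cadherin promoter, so endothelial cells carry ZsGreen. Among the cells in which Cre has acted, those where the alpha smooth muscle actin locus was active from then on, even briefly, carry tdTomato. Each group, tdTomato+ and ZsGreen+, has 2 libraries. Both share every allele and treatment, and libraries from mice without TAC were not analysed here.

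The libraries held 17050673 to 18574737 counts, of which chain genes took 0.818% to 1.13%. Acta2, whose locus the recorder reads, reached 303.9 and 527.5 CPM (counts scaled to library size) in the tdTomato+ group, while the ZsGreen+ group read 87.6 and 82.9 CPM (log2 fold change 2.29, SE 0.29, edgeR adjusted p = 0.0432). The endothelial markers Pecam1, Cdh5, Tie1, Kdr, Erg, Cldn5, Emcn, Egfl7 and Tek summed to 6614 and 6324 TPM (a share of transcripts, scaled by gene length) in tdTomato+ cells, below the 7472 and 7169 TPM of ZsGreen+ cells. Of these 9 markers, 2 had a log2 fold change above 0, the median was -0.14, and edgeR called none. The labels call the replicates biological without naming separate mice, and the p-values speak of spread among 4 libraries only, which may be technical. In such bulk samples, more cells of a type and more RNA per cell cannot be told apart.

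Basement membrane chains dominated the collagen mRNA of both groups. In every library Col4a1, Col4a2, Col18a1 and Col15a1 were the first 4 chains in that order, and together they held 94.9% and 91.2% of the summed chain TPM in tdTomato+ cells and 98.2% and 97.4% in ZsGreen+ cells. Type IV genes made up 70.5 ± 4.78% of the chain TPM in tdTomato+ and 82.4 ± 0.662% in ZsGreen+ cells (mean ± SD, n = 2 each, as throughout). Multiplexins made up 22.6 ± 2.19% and 15.4 ± 0.0614%, and fibrillar chains 5.79 ± 2.45% and 1.62 ± 0.462%. The fibrillar share was thus 4.06% and 7.52% in the tdTomato+ libraries and 1.29% and 1.95% in the ZsGreen+ libraries, with no overlap. With 2 against 2 libraries an exact permutation test cannot go below p = 0.333, so shares and levels carry no test of their own. Summed over all chains the level was 2258 ± 257 TPM in tdTomato+ and 2561 ± 96.6 TPM in ZsGreen+ cells.

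**Figure D1:**
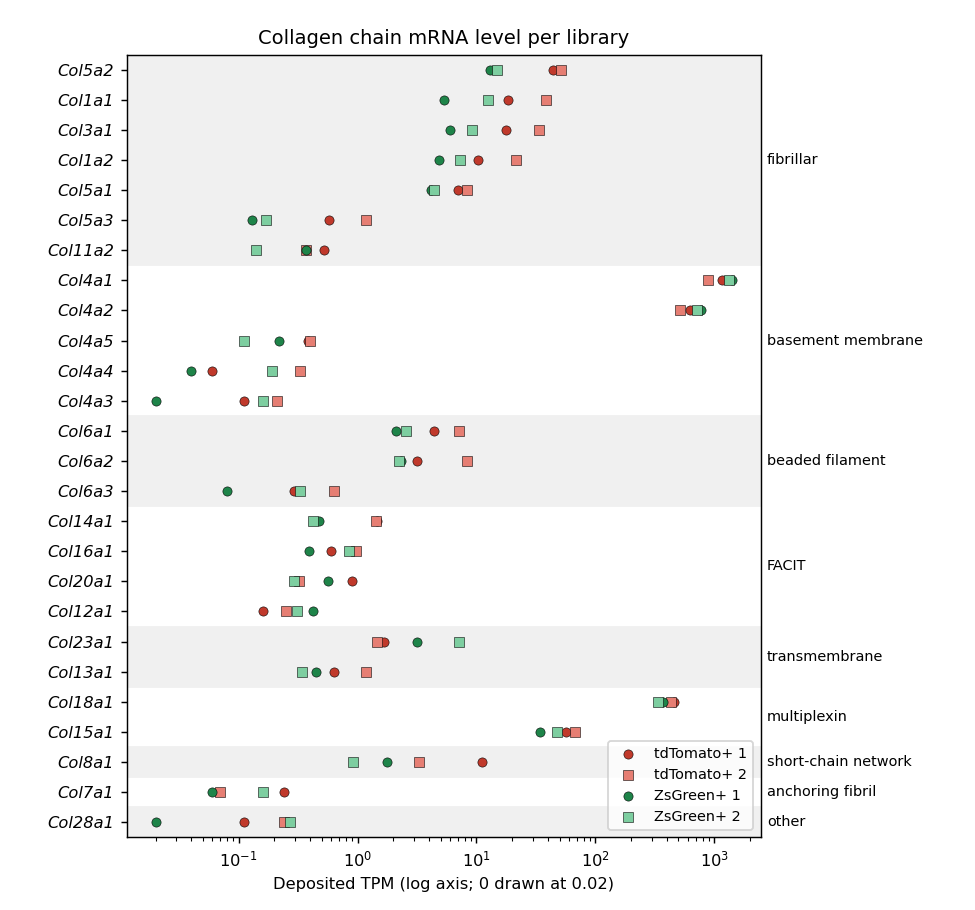
Deposited TPM (horizontal log axis) of the 26 chain genes that passed the filter on low counts, by class, with a point for each of the 4 libraries. Col4a1, Col4a2 and Col18a1 lie far to the right of all fibrillar chains in every library.

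Of the 44 genes, 26 passed the filter on low counts and were tested. A gene passes that filter more easily when it is high in one group, so counts over the 26 are a description. edgeR's quasi-likelihood test, adjusted over all 13177 genes tested, called 1 of the 26 higher in tdTomato+ cells and none lower. Over all genes it called 0.304%, with 0.167% higher and 0.137% lower. At an unadjusted p under 0.05, 11 chains lay higher and 3 lower, beside 5.62% and 3.15% of all genes. DESeq2 called 5 higher and 1 lower (2.44% of the 13500 genes it adjusted), with 1.51% of genes higher and 0.933% lower, and limma-voom called 1 (0.25% of all genes). Without a filter on low counts edgeR called 2 chains beside 0.764% of all genes. Without tdTomato+ replicate 1, tdTomato+ replicate 2 or ZsGreen+ replicate 2 it called none beside 0.126%, 0.0295% and 0.19%, and without ZsGreen+ replicate 1 it called 2 beside 2.21%. A replicate block gave 10 chains beside 7.09%, and limma on log2(TPM + 0.1) gave 0 beside 0.184%. Both tdTomato+ libraries were above both ZsGreen+ libraries in CPM for 13 of the 26 and below them for 4, while this held for 19.9% and 18.2% of all genes (38.1% in either direction). The median log2 fold change (tdTomato+ over ZsGreen+) was 0.81 over the 26 chains and -0.01 over all genes tested. TPM levels carry an offset, since the median gene was 0.13 higher in tdTomato+ cells on the log2 TPM scale and -0.01 in edgeR. Only for Col18a1, among the 26, did the groups overlap on one scale (CPM) and not on the other (TPM).

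The fibrillar class held the single call. Col5a2, which encodes a minor chain that is built into type I fibres and helps to set their width, was read at 44.3 and 51.9 TPM in tdTomato+ cells and at 13.1 and 14.8 TPM in ZsGreen+ cells. Both tdTomato+ libraries were high, both ZsGreen+ libraries low, and the groups did not overlap. Its level rose 3.12-fold in tdTomato+ cells (log2 fold change 1.64, SE 0.18, edgeR adjusted p = 0.0304), and in a ranking of all genes by p it was number 21. The gene (NCBI Gene 12832) spans chr1:45374331-45503282 in GRCm38. Leaving out tdTomato+ replicate 1 ended the call (log2 fold change 1.78, edgeR adjusted p = 0.0706), as did leaving out tdTomato+ replicate 2 (1.51, adjusted p = 0.23) and without ZsGreen+ replicate 2 (1.61, adjusted p = 0.0605).

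Col3a1, the chain of type III fibres of stretchable tissue, stood at 17.8 and 33.9 TPM in tdTomato+ cells and at 5.99 and 9.21 TPM in ZsGreen+ cells. Col1a1 and Col1a2 encode the chains of type I collagen, the main fibre of scars and tendon. Col1a1 was at 18.5 and 38.8 TPM against 5.32 and 12.5 TPM. Col1a2 was at 10.4 and 21.4 TPM against 4.84 and 7.31 TPM. In all of them the groups did not overlap, but the tdTomato+ libraries differed from each other in TPM by more than replicate 1, the lower of them, differed from ZsGreen+ replicate 2. Col1a1 spans chr11:94936224-94953042, Col1a2 chr6:4505618-4541543 and Col3a1 chr1:45311538-45349706. Their log2 fold changes were 1.65 (SE 0.34) for Col3a1, 1.59 (SE 0.45) for Col1a1 and 1.27 (SE 0.37) for Col1a2, and none passed edgeR's test (adjusted p = 0.164, 0.3 and 0.327). DESeq2 called all of them higher.

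The other type V genes, which encode partners of Col5a2, were lower in level. Col5a1 stood at 6.97 and 8.4 TPM against 4.13 and 4.36 TPM, with groups that did not overlap (log2 fold change 0.70, SE 0.22, edgeR adjusted p = 0.369). Col5a3 stood at 0.57 and 1.18 TPM against 0.13 and 0.17 TPM and rests on 38 and 86 reads against 9 and 12 (log2 fold change 2.41, SE 0.65, edgeR adjusted p = 0.28). Col11a2, a chain known from cartilage fibres, lay at or below 0.52 TPM with overlapping groups (0.65, SE 0.75). Over the 7 fibrillar genes tested the median log2 fold change was 1.59, with values from 0.65 to 2.41, and without tdTomato+ replicate 2 the median was 0.93. Of the 4 fibrillar genes that did not pass the filter, Col2a1 and Col24a1 had no read in any library, and Col11a1 and Col27a1 had at most 3 and 11.

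**Figure D2:**
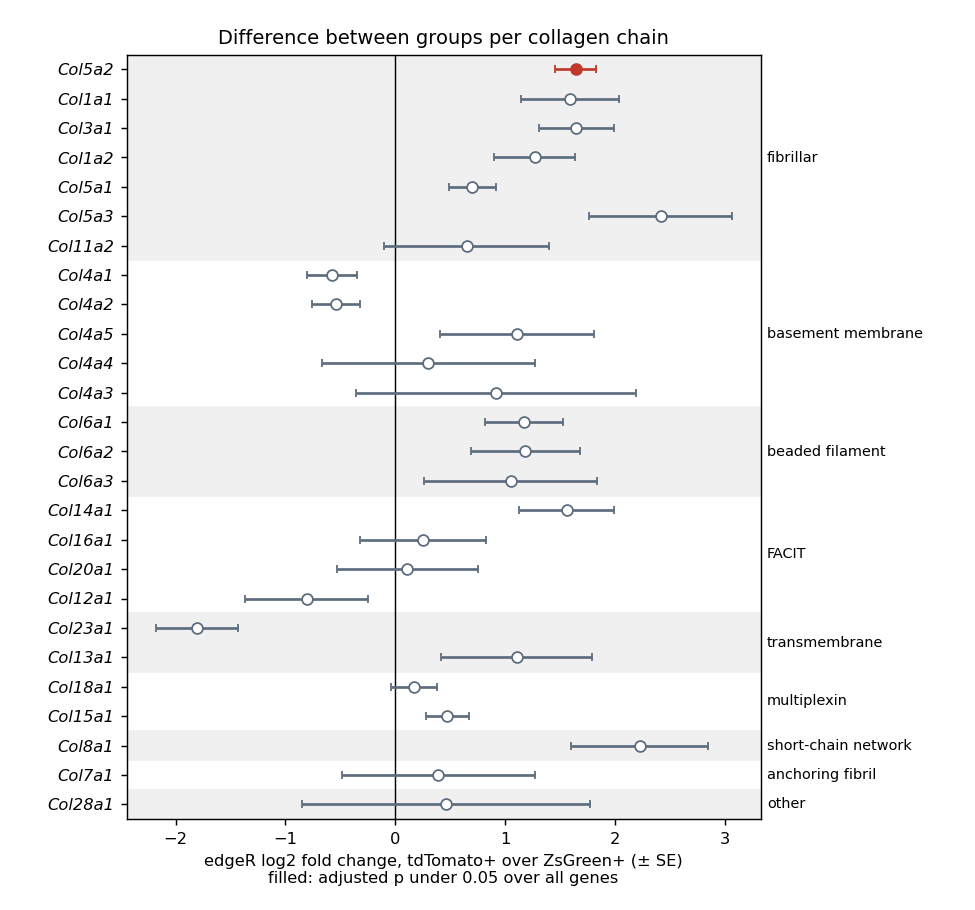
edgeR log2 fold change, tdTomato+ over ZsGreen+ (horizontal axis, bars ± SE), for the 26 chain genes tested, by class. Only Col5a2, the filled point at 1.64, passed the test over all genes, while the type IV pair at -0.58 and -0.54 and Col23a1 at -1.81 lie left of 0.

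Fibroblast markers lay higher in tdTomato+ cells beside the fibrillar genes. The 14 markers of the fibroblast list in the table (collagens were kept out of it) summed to 218 and 282 TPM in tdTomato+ cells and to 147 and 111 TPM in ZsGreen+ cells, and none of the 14 was at 0 in all libraries. Of these 14, 6 did not overlap between groups, all higher in tdTomato+ cells, beside 19.9% of all genes higher and 38.1% in either direction, and edgeR called none. They were, named after their values were seen, Pi16 at 52.4 and 64.4 TPM against 12.2 and 5.59 TPM, Mfap5, Dcn, Fbln1, Gpc3 and Clec3b. Their log2 fold changes were 2.49 (Pi16), 1.69 (Mfap5), 1.37 (Dcn), 1.61 (Fbln1), 1.54 (Gpc3) and 1.55 (Clec3b). Of all 14 markers, 12 had a log2 fold change above 0, and the median was 0.66. Mfap4, also named after its values were seen, led the sum in every library, with a log2 fold change of 0.35 (SE 0.28). Pdgfra, the receptor that defines lung fibroblasts, stood at 0.61 and 0.92 TPM against 0.56 and 0.58 TPM, with a log2 fold change of 0.21 (SE 0.52). Relative to the ZsGreen+ mean, the marker sum was 1.69 and 2.19 in the tdTomato+ libraries, Col3a1 2.34 and 4.46, and Col5a2 3.18 and 3.72. Within ZsGreen+ cells Col1a1 was higher in replicate 2 (1.4 against 0.596) and the marker sum higher in replicate 1 (1.14 against 0.86). Single markers went both ways there, named after their values were seen. Mfap4 was at 74.3 TPM in replicate 1 and 52.1 TPM in replicate 2, and Pi16 also fell. Npnt was at 4.63 and 6.94 TPM, and Dpt at 4.02 and 5.62 TPM. Pericyte markers summed to 6.38 to 13 TPM over the 4 libraries with overlapping groups. Smooth muscle markers, from a cell type that also makes fibrillar collagen, summed to 1974 and 2596 TPM against 1420 and 1238 TPM. Of the 8 smooth muscle genes, 6 had a log2 fold change above 0, and edgeR called only Acta2, the recorded locus. Without overlap between groups, 4 lay higher, Acta2 among them, and 1 lower, beside 19.9% and 18.2% of all genes. The sums of 3 further lists were higher in tdTomato+ cells or uneven. Those of alveolar type 2 cells summed to 838 and 909 TPM against 435 and 248 TPM, those of neutrophils to 165 and 206 TPM against 105 and 61.8 TPM, and those of macrophages to 9275 and 4186 TPM against 4143 and 1009 TPM. The part of RNA from these cells, smooth muscle or fibroblasts in the chain differences was not tested.

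**Figure D3:**
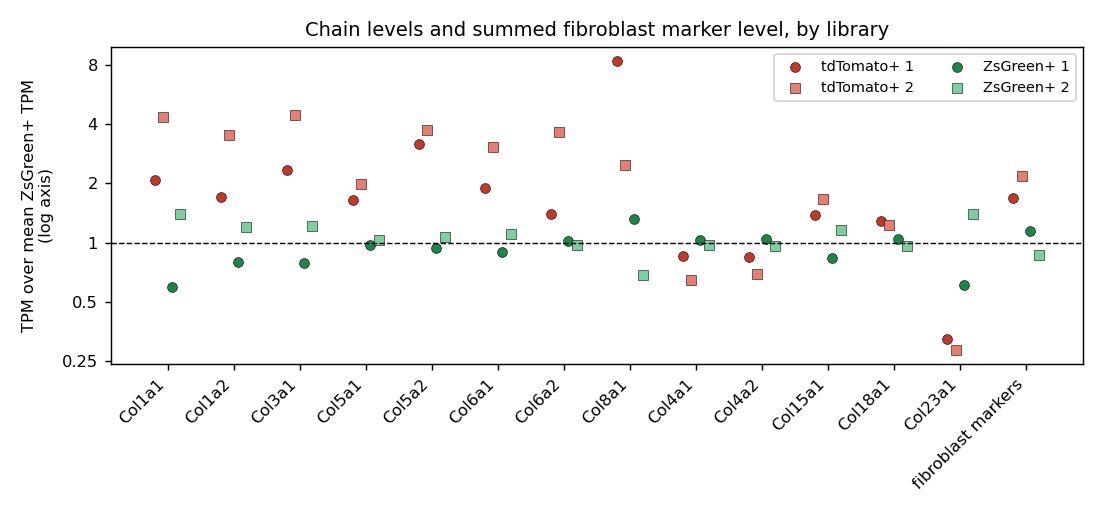
TPM of selected chains and of the summed fibroblast markers in each library, divided by the mean of the 2 ZsGreen+ libraries (vertical log axis). Col5a2 lies close together in both tdTomato+ libraries, whereas Col1a1, Col1a2, Col3a1 and Col6a2 are spread between them.

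Col3a1 and Col5a2 are also neighbours. They lie on chromosome 1 and face each other's ends, with 24624 bases between the RefSeq spans, and had log2 fold changes of 1.65 and 1.64. The promoter windows of Col3a1 (chr1:45311288-45311587) and Col1a2 (chr6:4505368-4505667), both on the plus strand of GRCm38.p6, run from 250 bases before to 50 after the RefSeq start. They are shown because both genes lay higher in tdTomato+ cells although their promoters differ in makeup. Capitals mark CCAAT, a box bound by the factor NF-Y, on either strand (read as ATTGG on the other).
Col3a1: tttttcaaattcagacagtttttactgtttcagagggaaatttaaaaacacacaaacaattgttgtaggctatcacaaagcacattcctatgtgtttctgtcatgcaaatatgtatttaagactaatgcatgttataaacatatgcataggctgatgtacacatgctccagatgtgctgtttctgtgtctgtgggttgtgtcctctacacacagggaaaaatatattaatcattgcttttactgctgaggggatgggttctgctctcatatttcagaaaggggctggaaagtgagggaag
Col1a2: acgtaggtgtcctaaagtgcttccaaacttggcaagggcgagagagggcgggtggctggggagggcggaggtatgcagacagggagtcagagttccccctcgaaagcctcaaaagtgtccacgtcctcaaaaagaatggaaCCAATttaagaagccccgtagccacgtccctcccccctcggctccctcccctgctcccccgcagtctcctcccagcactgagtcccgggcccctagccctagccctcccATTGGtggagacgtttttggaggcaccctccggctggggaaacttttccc
The Col3a1 window is 37.7% G and C with 0 CpG and no CCAAT, while that of Col1a2 is 61% G and C with 13 CpG, 2 CCAAT and 2 copies of GGGCGG, the box bound by Sp1. Over all 32851 RefSeq windows of 300 bases, the median is 52.7% G and C, 37.4% hold CCAAT and 35.7% hold GGGCGG, counted on both strands. Of the 38 windows of 35 chain genes, 13 (34.2%) held CCAAT and 23 (60.5%) held GGGCGG. The median of these 38 windows was 59.85% G and C, above that of all windows, and the shares were not adjusted for it. No window was at hand for Col5a2 or Col1a1.

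The abundant type IV chains lay lower in tdTomato+ cells, opposite to the fibrillar chains. Col4a1 and Col4a2 encode the chains of the common network of basement membranes. Col4a1 was at 1171 and 879 TPM in tdTomato+ cells and at 1404 and 1329.9 TPM in ZsGreen+ cells. Col4a2 was at 630.5 and 512 TPM against 774 and 711 TPM. The groups of both genes did not overlap, and in both tdTomato+ replicate 2 was the lowest library. The log2 fold changes were -0.58 (SE 0.23) and -0.54 (SE 0.22), and neither gene passed edgeR's test (adjusted p = 0.523 and 0.543). The ratio of Col4a1 to Col4a2 TPM was 1.86 and 1.72 in tdTomato+ cells and 1.81 and 1.87 in ZsGreen+ cells, which overlapped between groups.

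Col4a1 and Col4a2 are transcribed away from each other from a shared stretch of chromosome 8. Their RefSeq spans, chr8:11198423-11312889 and chr8:11312805-11449287 in GRCm38, overlap by 85 bases at the starts. The promoter windows of Col4a1 and Col4a2, chr8:11312777-11313076 on the minus strand and chr8:11312555-11312854 on the plus strand, share 78 bases. The Col4a1 window is set on a start that lies inside the printed span, not at its edge, and the edge lies outside the shared bases. They are shown because the windows overlap and both genes lay lower in tdTomato+ cells. Capitals mark the shared bases, each window read 5′ to 3′ on its own strand.
Col4a1: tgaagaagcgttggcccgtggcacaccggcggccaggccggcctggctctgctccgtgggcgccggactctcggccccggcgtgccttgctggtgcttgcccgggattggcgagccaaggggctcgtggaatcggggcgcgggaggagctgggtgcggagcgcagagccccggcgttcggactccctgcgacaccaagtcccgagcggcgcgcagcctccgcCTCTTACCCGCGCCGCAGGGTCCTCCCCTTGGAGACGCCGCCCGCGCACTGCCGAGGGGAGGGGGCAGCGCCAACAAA
Col4a2: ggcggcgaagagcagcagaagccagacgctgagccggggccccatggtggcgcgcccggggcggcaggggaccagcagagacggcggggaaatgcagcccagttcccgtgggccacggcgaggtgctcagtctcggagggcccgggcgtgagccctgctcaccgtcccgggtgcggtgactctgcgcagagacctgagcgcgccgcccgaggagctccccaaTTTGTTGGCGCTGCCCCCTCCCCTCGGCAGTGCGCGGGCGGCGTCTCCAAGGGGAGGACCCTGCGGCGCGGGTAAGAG
Both windows are rich in G and C (74% and 73.7%) with 37 and 33 CpG, and each holds 1 CCAAT. Whether counting used strand is not known here, and without it reads from the bases that both genes cover cannot be told apart.

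The remaining type IV genes, known from kidney, alveolar and other special basement membranes, were near the limit of detection. Col4a5 stood at 0.38 and 0.4 TPM against 0.22 and 0.11 TPM (log2 fold change 1.10, SE 0.70). Col4a3 and Col4a4, another pair that starts from a shared stretch, lay at or under 0.33 TPM with overlapping groups. Markers of alveolar type 1 cells, which are known to make these chains, summed to 61 and 79.7 TPM in tdTomato+ cells and to 90.3 and 129 TPM in ZsGreen+ cells. That sum and the single genes differ in direction, since 5 of the 8 markers had a log2 fold change above 0 and the median was 0.20. Pdpn (-2.03, SE 0.37), which lymphatic endothelium also expresses, and Clic5 (-1.20, SE 0.32), named after their values were seen, lay lower. Col4a6 had at most 12 reads and was not tested. The median log2 fold change over the 5 type IV genes tested was 0.30, so in this class the median has the opposite sign to the abundant pair. Without tdTomato+ replicate 2 that median was -0.39, and without tdTomato+ replicate 1 it was 1.00.

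The multiplexins lay slightly higher in tdTomato+ cells in TPM. Col18a1, whose product releases endostatin, an inhibitor of vessel growth, was at 457 and 434 TPM against 370.4 and 338 TPM. These TPM values did not overlap, but the CPM values did, with a log2 fold change of 0.17 (SE 0.21, edgeR adjusted p = 0.903). Col15a1, a linker between basement membrane and fibres, was at 56.3 and 67.6 TPM against 34.2 and 47.3 TPM (0.47, SE 0.20, edgeR adjusted p = 0.558). The ratio of Col4a1 to Col18a1 TPM, chosen after the values were seen, was 2.56 and 2.03 in tdTomato+ cells against 3.79 and 3.93 in ZsGreen+ cells and did not overlap.

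Chains of beaded filaments were low and lay higher in tdTomato+ cells. Col6a1 stood at 4.42 and 7.19 TPM against 2.11 and 2.58 TPM, with a log2 fold change of 1.17 (SE 0.35, edgeR adjusted p = 0.351). Col6a2 stood at 3.19 and 8.29 TPM against 2.34 and 2.23 TPM, with 1.18 (SE 0.50, adjusted p = 0.57). Both did not overlap between groups, and tdTomato+ replicate 2 was again the highest library. Col6a3, the longest chain of the same filament, was at 0.29 and 0.64 TPM against 0.08 and 0.33 TPM and overlapped (1.05, SE 0.79). Col6a5 and Col6a6 had no read in any library, and Col6a4 had at most 4.

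Among FACIT genes, Col14a1, whose protein coats type I fibres, stood at 1.47 and 1.44 TPM against 0.47 and 0.42 TPM, with close replicates in both groups (log2 fold change 1.56, SE 0.43, edgeR adjusted p = 0.29). Col12a1, a coat protein of similar structure, lay the other way at 0.16 and 0.25 TPM against 0.42 and 0.31 TPM (-0.81, SE 0.56, adjusted p = 0.806). Col16a1 and Col20a1 lay under 1 TPM with overlapping groups and log2 fold changes of 0.25 (SE 0.57) and 0.11 (SE 0.64). Col9a1 and Col19a1 had no read, and Col9a2, Col9a3 and Col22a1 had at most 3, 10 and 4.93 estimated reads.

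The transmembrane chains differed from each other. Col23a1 was the chain with the lowest log2 fold change, at 1.67 and 1.47 TPM in tdTomato+ cells against 3.14 and 7.13 TPM in ZsGreen+ cells (-1.81, SE 0.37, edgeR adjusted p = 0.162). The groups did not overlap, the tdTomato+ libraries lay close together, and ZsGreen+ replicate 2 stood far above ZsGreen+ replicate 1. The gene spans chr11:51289679-51583925. DESeq2 called Col23a1 lower. Col13a1, found at sites of cell adhesion, stood at 0.64 and 1.17 TPM against 0.45 and 0.34 TPM (1.10, SE 0.69, adjusted p = 0.775). Col17a1 and Col25a1 had at most 9 reads each and were not tested.

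Col8a1, a short-chain collagen of vessel walls, was at 11.2 and 3.31 TPM in tdTomato+ cells and at 1.76 and 0.92 TPM in ZsGreen+ cells. Here tdTomato+ replicate 1 stood out, at 8.32 times the ZsGreen+ mean against 2.47 in replicate 2. Its log2 fold change of 2.23 (SE 0.62) did not pass with edgeR (adjusted p = 0.3), and DESeq2 called the gene higher. It spans chr16:57624256-57754737. Col7a1, of the fibrils that anchor skin, and Col28a1, known from peripheral nerve, lay at or under 0.27 TPM with overlapping groups (0.39, SE 0.88, and 0.46, SE 1.31). Col8a2, Col10a1 and Col26a1 had at most 7, 2 and 1.05 estimated reads.

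In all, 18 of the 44 genes were not tested, and the highest count among them was 12, for Col4a6. Of these, 6 had no read in any library, which at these depths allows a level of up to 0.176 CPM (3 counts of the smallest library, covering counting error only). The tested gene with the lowest maximum was Col28a1, with 13 reads.

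Chains of one collagen type did not always keep their ratio. The ratio of Col5a1 to Col5a2 TPM was 0.157 and 0.162 in tdTomato+ cells and 0.316 and 0.294 in ZsGreen+ cells. Both groups were narrow and did not overlap (0.16 ± 0.00309 against 0.305 ± 0.0156). The ratio of Col1a1 to Col1a2 was 1.78 and 1.81 against 1.10 and 1.71, so the groups did not overlap, but ZsGreen+ replicate 2 lay close to the tdTomato+ libraries and ZsGreen+ replicate 1 stood apart. The ratio of Col6a1 to Col6a2 was 1.39 and 0.867 against 0.902 and 1.16, and that of Col6a3 to Col6a1 was 0.0656 and 0.089 against 0.0379 and 0.128, both with overlap.

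**Figure D4:**
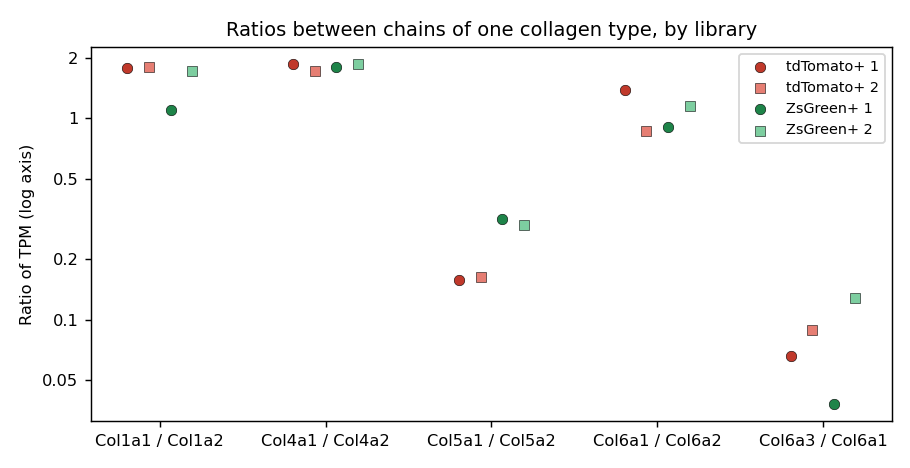
Ratio of TPM between chains of one collagen type (vertical log axis) in each of the 4 libraries. Col5a1 over Col5a2 is separated with narrow groups, near 0.16 in tdTomato+ and near 0.305 in ZsGreen+ cells.

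The enzymes and partners that collagens need did not move as one. Of 96 such genes listed, 88 were tested, and edgeR called 1 higher, fibronectin (Fn1), and none lower (0.304% of all genes were called). At an unadjusted p under 0.05, 20 lay higher and 4 lower, beside 5.62% and 3.15% of all genes. DESeq2 called 10 higher and none lower, beside 1.51% and 0.933%. The median log2 fold change over the 88 was 0.13. Fn1, which fibrillar collagens assemble on, rose from 12.6 and 9.82 TPM in ZsGreen+ to 47.8 and 40.1 TPM in tdTomato+ cells (log2 fold change 1.80, SE 0.24, edgeR adjusted p = 0.0467). Bgn, the proteoglycan biglycan that binds type I fibres, stood at 634 and 905 TPM against 245.9 and 212 TPM (1.59, SE 0.28, adjusted p = 0.112), and Dcn, decorin, at 10.7 and 11.8 TPM against 4.53 and 3.07 TPM (1.37, SE 0.38). Over the 14 fibril-associated genes tested, the median was 0.66, with 10 above 0 and 4 below. Those 4, named after their values were seen, were Tnxb (-1.40, SE 0.48), Postn, Prelp and Sparc. Sparc, the most abundant of the 14, stood at 3490 and 3602 TPM against 4017 and 4124 TPM (-0.35, SE 0.20).

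Inside the cell, the 15 prolyl and lysyl modifiers centred on a median of -0.09 (log2 fold change) and none passed edgeR's test. P3h2, a prolyl 3-hydroxylase that acts on type IV chains, stood at 7.76 and 8.44 TPM against 2.47 and 2.58 TPM (1.53, SE 0.29, adjusted p = 0.13). P4ha3, a prolyl 4-hydroxylase subunit, was at 1.98 and 14 TPM against 0.27 and 1.45 TPM (3.15, SE 1.04), and P3h3 had 0.74 (SE 0.29). DESeq2 called P3h2 and P4ha3 higher. Folding and export genes had a median of -0.03 over 15 genes, with none passing at an unadjusted p under 0.05 or by DESeq2. Their smallest p-values were those of the transcription factors Creb3l1 (0.62, SE 0.39) and Creb3l2 (-0.29, SE 0.20) and the chaperone Fkbp10 (0.27, SE 0.20).

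Outside the cell, genes that trim and cross-link chains spread in both directions. Lox, a lysyl oxidase, stood at 4.26 and 5.97 TPM against 0.64 and 1.35 TPM (2.25, SE 0.41, edgeR adjusted p = 0.126). Loxl1 had 1.27 (SE 0.42) and Loxl2, which also acts on type IV collagen, -0.88 (SE 0.27). Tll1, a procollagen C-proteinase, stood at 6.39 and 7.22 TPM against 1.41 and 3.3 TPM (1.42, SE 0.37, adjusted p = 0.259). Its enhancer gene Pcolce had 1.10 (SE 0.35) and the N-proteinase Adamts2 1.17 (SE 0.39). Of the 7 processing genes tested, 4 lay above 0 and 3 below. Among those below, named after their values were seen, were Pcolce2 (-1.16, SE 0.42) and Furin (-0.46, SE 0.19). The medians were 0.11 over 7 processing and 0.18 over 7 cross-linking genes, and none passed edgeR's test. DESeq2 called Lox and Tll1 higher.

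Basement membrane partners of type IV collagen, 11 genes, centred on a median of 0.40 (log2 fold change), with no call by edgeR. Lama3, a laminin chain, stood at 1.04 and 1.06 TPM against 0.25 and 0.03 TPM (3.24, SE 0.86, adjusted p = 0.279) and was called higher by DESeq2. The laminin chains Lamb1 (1.00, SE 0.39) and Lama4 (0.55, SE 0.22) lay higher without passing. Among receptors, Ddr1, a kinase that binds collagen, stood at 7.81 and 10.8 TPM against 2.33 and 2.11 TPM (1.55, SE 0.29, adjusted p = 0.129), and Ddr2 (0.78, SE 0.32) and Lair1 (1.39, SE 0.60) followed. Among genes of breakdown, the gelatinase Mmp2 stood at 49.9 and 78.8 TPM against 12.9 and 16.9 TPM (1.98, SE 0.27, adjusted p = 0.0525). The collagen-cutting cathepsin Ctsk had 1.42 (SE 0.40) and the membrane protease Mmp15 -0.38 (SE 0.16). DESeq2 called Ddr1, Mmp2 and Ctsk higher. The medians were 0.20 over 10 receptor and 0.15 over 9 breakdown genes.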

How the data were processed

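Cells gave total RNA by the RNeasy Micro kit, which was preamplified (Discover-sc WTA) before library preparation for MGI sequencing, per the labels' protocols. RSEM 1.3.1, DESeq2 1.4.5, mm10 and GRCm38 are named in the submitters' processing notes, without a role. Aligner, filters and strand setting: not given in the sources used here. Deposited estimated counts were rounded to whole numbers for tests. TPM and FPKM are as the authors deposited them, and TPM gives the levels. The authors' normalized counts, a signal per gene, were not used.

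edgeR 4.0.16 under R 4.3.3 compared the groups with a two-sided quasi-likelihood F-test, TMM factors and filterByExpr (minimum count 10), on all genes, with Benjamini-Hochberg adjusted p under 0.05 as the threshold. The SE was obtained by dividing the size of the fold change (log2) by the root of its F statistic. Alternatives used RLE or upper quartile factors, DESeq2 1.42.0, limma 3.58.1 (voom, or log2 TPM with a pseudocount of 1 or 0.1), other filters, each library left out and a replicate block. On simulated data for this comparison (13177 genes, changed genes with at least 5 CPM), 18% of changes of 2-fold size were found by edgeR, 96.7% at 4-fold, all at 8-fold, and 0.0488% of unchanged genes were called. Every simulated gene had the same spread between replicates (coefficient of variation 26.1%, counting error aside). Genes that vary more, such as Col8a1 (SE 0.62), were not simulated, so these shares do not apply to them. Members, lists and classes were chosen with earlier results of these data known. All tested chains are named, and up to 3 genes per partner list with the smallest p among those at 1 CPM or more on average, beside called ones. Of 44 chains all matched RefSeq (GRCm38.p6), 35 with the same span as deposited; coordinates are printed where spans are the same. For 3 chains (Col11a2, Col16a1 and Col4a6) the deposited span starts on a scaffold outside the chromosomes. The planned count of Gly-X-Y triplets was not run, for want of protein sequences.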

Additional observations from a re-analysis of the deposited data

How the results depend on the processing

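The number of chain genes called, 1 in the main analysis, was 6 with DESeq2, 2 without a filter on low counts, and 0 with limma on log2(TPM + 0.1) or, without a filter, on log2(TPM + 1). Over all genes these settings called 330, 128, 22 and 0, where the main analysis called 40. Without a filter, limma on log2(TPM + 1) did not call Acta2 either (2.41, adjusted p = 0.184). Leaving out each library in turn gave 0 to 2 chains and 4 to 304 genes, and log2 fold changes of Acta2 from 1.86 to 2.63, with adjusted p from 0.0222 to 0.126. For Col5a2, the range over all settings was 1.51 to 1.78.

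The same-numbered libraries are not said to be paired. Their deviations from the group means correlated at 0.455 over 13177 genes, and a replicate block, which leaves 1 residual degree of freedom, called 10 chains (9 higher, 1 lower) and 934 genes.

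Class medians moved between settings, both where more or fewer genes were tested (2 to 6 type IV genes) and where the number tested was the same (5 with limma-voom and without either tdTomato+ library). For type IV the median was the value of Col4a4, a gene at or under 0.33 TPM, in the main analysis and with limma-voom. At 1 CPM or more in 2 libraries it was the value of Col4a2. Why these values and the other medians moved was not tested. For type IV (0.30) the median was 0.62 with DESeq2, 0.11 with limma-voom, 0.61 without a filter, -0.54 at 1 CPM or more in 2 libraries, -0.41 with limma on log2(TPM + 1) and on log2(TPM + 0.1), and 0.10 with limma on log2(TPM + 1) without a filter. For FACIT genes (0.18) it was 0.76 and 1.51 on log2(TPM + 1) and log2(TPM + 0.1). For all chains (0.81) it was 1.09 at 1 CPM or more, 1.19 on log2(TPM + 0.1) and 0.12 on log2(TPM + 1) without a filter, where the fibrillar median was 0.72. With each library left out the medians ran from 0.55 to 1.15 for all chains, -0.39 to 1.00 for type IV, 0.33 to 1.53 for type VI, -0.30 to 0.25 for FACIT and 0.93 to 1.75 for fibrillar genes. Shares by counts in place of TPM were 85.6% for type IV in ZsGreen+ cells, and 12.3% and 18.5% for multiplexins in ZsGreen+ and tdTomato+ cells.

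Of 362 values of single chains over 15 settings, 329 kept direction and side of the threshold, 16 passed it, 5 lost it and 12 changed sign, all 12 without 1 library. With each library left out in turn, Col4a4 ran from -1.09 to 1.21 (lowest without tdTomato+ replicate 2, and -0.24 without ZsGreen+ replicate 1), Col7a1 from -0.64 (without tdTomato+ replicate 1) to 1.17, with -0.10 without ZsGreen+ replicate 1, and Col16a1 from -0.17 (without tdTomato+ replicate 2) to 0.74, with -0.11 without ZsGreen+ replicate 1. Col18a1 ran from -0.0076 (without ZsGreen+ replicate 2) to 0.37 and Col20a1 from -0.56 (without tdTomato+ replicate 1) to 0.66, with -0.30 without ZsGreen+ replicate 2. Col4a3 ran from -0.036 (without ZsGreen+ replicate 1) to 6.93 and Col28a1 from -0.48 (without ZsGreen+ replicate 1) to 6.18, with -0.12 without tdTomato+ replicate 2. Those 2 upper values arise without ZsGreen+ replicate 2, where the remaining ZsGreen+ library is at 0, and depend on the prior count. The cause of the other changes was not tested.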

Other observations

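Markers of several endothelial subtypes differed beside the collagen chains, while arterial markers were mixed. Venous markers summed to 1546 and 1440 TPM in tdTomato+ and to 503 and 416 TPM in ZsGreen+ cells, with 2 of 7 called higher by edgeR (0.167% of all genes). Aerocyte markers, of the alveolar capillary, summed to 144 and 148 TPM against 227 and 261 TPM, with 1 of 6 called lower (0.137% of all genes). Of 6 lymphatic markers tested, edgeR called 2 lower (0.137% of all genes), Mmrn1 (-3.10, SE 0.39, adjusted p = 0.0432) and Reln (-3.20, SE 0.41, adjusted p = 0.0465). In 5 of these 6 both tdTomato+ libraries were below both ZsGreen+ libraries, beside 18.2% of all genes, and the median log2 fold change of the 6 was -1.84. Their sum, led by Lyve1, overlapped at 408 and 584 TPM against 359.7 and 566 TPM. General capillary markers summed to 4990 and 5189 TPM against 5894 and 5601 TPM with none of 6 called, and Plvap led that sum. Their median log2 fold change was -0.82 and none was above 0. For 3 of the 6 both tdTomato+ libraries were below both ZsGreen+ libraries, beside 18.2% of all genes. Arterial markers summed to 907 and 1234 TPM against 933 and 1106 TPM and overlapped, with none of 8 called. Their median log2 fold change was 0.02, and 4 of the 8 were above 0. Without overlap between groups, 3 of them lay higher and 2 lower, beside 19.9% and 18.2% of all genes. The part of these subtypes in the collagen differences was not tested.

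The chain levels varied between libraries of one group in a way that differed by chain. Of the 7 fibrillar genes tested, 6 were higher in replicate 2 than in replicate 1 in tdTomato+ cells, and 6 in ZsGreen+ cells (TPM). Over all 26 chains tested these counts were 17 and 15. The ratio of Col1a1 to Col3a1 TPM, chosen after the values were seen, was 1.04 and 1.14 in tdTomato+ and 0.888 and 1.36 in ZsGreen+ cells. That of Col5a2 to Col3a1 was 2.49 and 1.53 against 2.18 and 1.61, so Col5a2 was the more abundant of these neighbours in every library.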
